A study of Mus musculus with 9 samples.

Results

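The genes described here were the splicing factor and hnRNP genes of mouse embryonic fibroblasts (MEFs), chosen by name alone. They comprised every listed gene whose name begins with Hnrnp, Srsf, Sf3, Snrp, Snrnp, U2af or Prpf, except Hnrnpk, which was the gene targeted in these cells. This gave 74 of 15184 listed genes: 19 named Hnrnp, 11 Srsf, 19 Snrp or Snrnp, 13 Prpf, 9 Sf3 and 3 U2af. PolyA+ RNA was sequenced in 9 libraries of 3 groups. MEFs of genotype Empty vector gave 3 libraries, and MEFs of genotype Hnrnpk_SAM gave 3 libraries of the line SAM1 and 3 of the line SAM2. SAM stands for synergistic activation mediator, in which an inactive Cas9 and a guide RNA bring transcriptional activators to a chosen promoter. According to the methods, WT MEFs were transduced with the lentiviral plasmids lentiMPHv2 and lentiSAMv2 and selected with blasticidin and hygromycin, with different guides used separately, and lentiSAMv2 with a nontargeting guide was the control. The letters printed in the study for the nontargeting guide are the same as those for guide 2 against Hnrnpk, so what the control guide was cannot be settled from that list. The labels name only empty vector and sgRNA2 cells where they describe the making of libraries. Neither the labels nor the methods say which guide each line carries, how old the embryos were, or whether libraries of 1 line came from separate cultures. P-values therefore measure the spread between these libraries, which may be technical. It is also not said whether a SAM line, or the empty vector cells, came from more than 1 transduction. The guide, the line and the transduction therefore cannot be told apart.

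Most introns are removed by the major spliceosome, which is assembled from the U1, U2, U4, U5 and U6 snRNPs, while a small class of introns is removed by the minor spliceosome. Each snRNP holds an snRNA and proteins, and Sm proteins form a ring around most of these snRNAs. U1 binds the start of the intron. U2AF reads its end, and the SF3A and SF3B complexes hold U2 at the branch point. PRPF8 and SNRNP200 act in the U5 snRNP at the catalytic step and in unwinding U4 from U6. SR proteins (Srsf genes) mostly favour the use of exons, and hnRNPs coat nascent RNA and often favour skipping. Many of these proteins adjust their own mRNA by splicing in exons that lead to its decay.

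As background to the label of the cells, 12 of 12 fibroblast markers were listed. Their summed normalized counts lay between 1039031 and 1130887 in empty vector, 880869 and 937377 in SAM1, and 1162149 and 1200717 in SAM2. The single markers moved in both directions, with log2 changes from -2.12 to 1.3 in SAM1 and from -2.22 to 0.54 in SAM2. At an adjusted p under 0.05 from limma, 3 were higher and 8 lower in SAM1, where 37.3% and 36.9% of all listed genes were. In SAM2 3 were higher and 5 lower, where 35.2% and 35.3% of all listed genes were. Of 7 epithelial markers 3 were listed, with sums of 388 to 429 in empty vector, 3733 to 3884 in SAM1 and 243 to 275 in SAM2. All 4 endothelial markers were listed, with sums of 301 to 357, 4613 to 4988 and 638 to 689. In SAM1 these sums came mostly from Cldn4 and Kdr, while the endothelial gene Cdh5 stood at 77.6, 64.7 and 51.2 on average in empty vector, SAM1 and SAM2. Of 5 blood cell markers 2 were listed, with sums of 393 to 505, 673 to 734 and 585 to 621. All 8 proliferation markers rose over both SAM lines, from a summed count of 18254 to 18415 in empty vector to 41012 to 41664 in SAM1 and 42788 to 43538 in SAM2. The part of these marker genes in the results below was not tested. In 8 libraries 100% of the deposited values were whole multiples of the value of 1 read, within 0.1 reads, and these libraries held between 41759636 and 49026626 reads on the listed genes.

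Hnrnpk itself had normalized counts of 25058, 26098 and 26164 in empty vector, 24102, 24045 and 23619 in SAM1, and 26608, 26859 and 26221 in SAM2. SAM1 lay below empty vector and SAM2 above it, with changes of -0.11 (adjusted p = 0.00252 from limma) and 0.044 (adjusted p = 0.159 from limma) on the log2 scale. The level of Hnrnpk mRNA thus did not separate the libraries labelled Hnrnpk_SAM from empty vector, and every direction below is relative to those labels. The study also measured Hnrnpk by qRT-PCR and Western blot, which were not analysed here.

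Sequence just before the start site is shown for the 5 members whose mRNA moved most and for Hnrnpab, the hnRNP gene that rose most. It was taken from the RefSeq promoter table, which is built on GRCm38.p6, and placed on GRCm39 by its single exact match. Each line gives the 150 bases before 1 annotated start, from 5′ to 3′ on the strand of the gene. Capitals mark a CCAAT box (CCAAT), a GC box (GGGCGG), an E-box (CACGTG), an NRF1 core (CGCATGCG), a YY1 core (ATGGCG), an ETS site (CCGGAAG) or a palindromic CG element (CTCGCGAG), each searched on both strands, so that a match on the other strand appears as its reverse complement. The table held 4 starts for Snrpn, and the one richest in CG dinucleotides was taken. The windows of Snrpn, Hnrnpab, Snrnp35 and Srsf12 lie within the bounds of the annotated genes, and that of Snrnp200 reaches into them at its end.
Prpf8 (chr11:75377453-75377602, plus strand): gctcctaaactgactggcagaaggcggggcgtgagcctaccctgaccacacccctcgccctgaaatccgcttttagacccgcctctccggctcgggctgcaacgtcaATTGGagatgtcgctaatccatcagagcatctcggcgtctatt
Snrnp200 (chr2:127050156-127050305, plus strand): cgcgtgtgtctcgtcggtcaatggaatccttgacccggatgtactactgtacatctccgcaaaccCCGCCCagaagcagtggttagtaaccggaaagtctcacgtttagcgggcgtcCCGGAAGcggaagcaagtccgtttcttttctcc
Hnrnpab (chr11:51497709-51497858, minus strand): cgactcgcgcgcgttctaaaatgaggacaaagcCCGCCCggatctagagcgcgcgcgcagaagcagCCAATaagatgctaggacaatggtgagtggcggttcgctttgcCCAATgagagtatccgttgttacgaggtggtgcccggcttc
Snrpn (chr7:59654948-59655097, minus strand): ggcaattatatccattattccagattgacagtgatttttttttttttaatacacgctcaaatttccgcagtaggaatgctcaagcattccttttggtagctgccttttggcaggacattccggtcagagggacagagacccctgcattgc
Snrnp35 (chr5:124621068-124621217, plus strand): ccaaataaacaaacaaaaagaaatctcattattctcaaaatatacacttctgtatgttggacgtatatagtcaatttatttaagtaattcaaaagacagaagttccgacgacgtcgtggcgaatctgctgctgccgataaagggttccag
Srsf12 (chr4:33209122-33209271, plus strand): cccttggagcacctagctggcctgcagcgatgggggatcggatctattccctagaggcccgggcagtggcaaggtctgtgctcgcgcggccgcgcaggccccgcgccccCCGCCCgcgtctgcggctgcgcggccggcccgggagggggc
The Prpf8 window held 11 CG dinucleotides, the Snrnp200 window 14, the Hnrnpab window 16 and the Srsf12 window 18, against 7 for Snrnp35 and 3 for Snrpn. The median over all windows of listed genes was 10, and over 85 windows of the members 14. Prpf8 had a CCAAT box 43 bases before its start and Hnrnpab had a pair of them, at 84 and 41 bases. Snrnp200 had a GC box and an ETS site, Srsf12 had a GC box, and no match was found in the windows of Snrpn and Snrnp35. Over the whole 300 base window, from 250 bases before to 50 after the start, the letters of an ETS site were found in 22 of 64 members with an entry (34.4%) and in 19.0% of 11165 listed genes. The YY1 core was found in 28.1% of the members and 17% of the listed genes. The NRF1 core was found in 9.4% and 4.0%, the CCAAT box in 46.9% and 43.1%, the GC box in 71.9% and 67.0%, the E-box in 14.1% and 11.4%, and the palindromic CG element in 4.7% and 2.1%. A match of letters is not a bound site, and members without a match are not shown to lack one.

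The members differed widely in level in these cells, and their levels per kilobase were not compared with those of all listed genes. Per kilobase of the canonical transcript, the highest mean normalized counts in empty vector were 11110 for Hnrnpa2b1, 9251 for Hnrnpab, 7910 for Snrpb, 7511 for Hnrnpa0 and 6504 for Hnrnpa1. The lowest were 20.1 for Srsf12, 78.0 for U2af1l4 and 140 for Snrpn (named here for their place in this order, not by the rule used elsewhere). The canonical transcript need not be the main one in MEFs, so this order is approximate. A normalized count above 10 was reached in all 9 libraries by 73 members. The exception was Srsf12, whose SAM libraries lay around that value. Genes above 10 in fewer than 30% of samples were left out by the authors before deposit and were not analysed here.

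The normalized counts of all 74 members summed to between 495249 and 510616 in empty vector, 539343 and 544628 in SAM1, and 523057 and 524324 in SAM2. All 6 SAM libraries lay above the 3 of empty vector, and SAM1 lay above SAM2. As a share of the normalized counts of a library this was 1.01% to 1.05%, 1.21% to 1.24% and 1.15% to 1.16%, and the total itself was lower in the SAM libraries. The Hnrnp family gave the largest part, with 223982 to 232085 in empty vector, 249928 to 252692 in SAM1 and 237335 to 240152 in SAM2. The Prpf family rose from at most 58665 to at least 64022. Most of this came from Prpf8, with means of 10917 in empty vector, 18164 in SAM1 and 17524 in SAM2. Most of the rise of the Snrp family came from Snrnp200, with means of 9407, 16931 and 13074. The sums of the Srsf family (76832 to 81556 in empty vector, 77569 to 79818 and 79926 to 80088 in the SAM lines) overlapped between the groups, but as a share of the library they were 0.157% to 0.168% in empty vector and 0.175% to 0.182% and 0.176% in the SAM lines, which lay above. Sf3 sums in SAM1 (65496 to 65922) lay below those of empty vector (67703 to 69672), while as a share they lay above, at 0.147% to 0.150% against 0.139% to 0.143%.

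**Figure D1:**
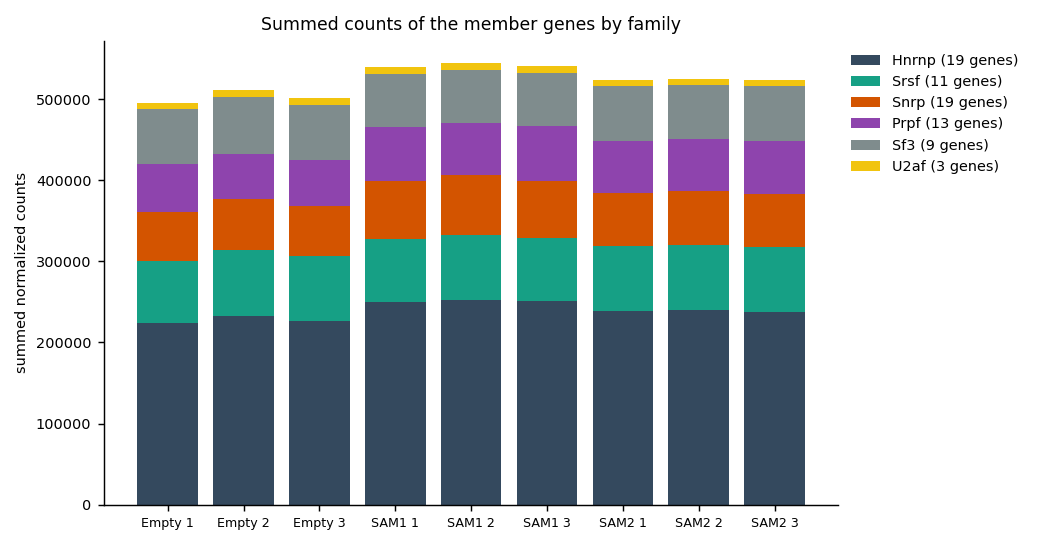
Summed normalized counts (vertical axis, from 0) in each of the 9 libraries (horizontal axis), with 1 colour per gene family. The full bars of the SAM libraries are taller than those of empty vector, and most of the difference lies in the Hnrnp, Snrp and Prpf parts.

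To ask which members differed between the cells labelled Hnrnpk_SAM and empty vector, log2(normalized count + 1) was fitted with limma over all listed genes, and a gene was called at a Benjamini-Hochberg adjusted p under 0.05. Fold changes are on this log2 scale, each with its standard error (SE). With the 6 SAM libraries as 1 group, 40 of 74 members were called, 23 higher and 17 lower. Of all listed genes 53.9% were called, 26.8% higher and 27.0% lower, so the share of members called (54.1%) was near the background. All 6 SAM libraries lay on 1 side of the 3 empty vector libraries in 41 members, 23 above and 18 below, and in 53.1% of all listed genes. Changes of members were small. Only 5 called members changed by more than 0.5 on the log2 scale, against 28.1% of all listed genes, and 46 of 74 lay within 0.2 of zero. The median absolute change was 0.17 over the members and 0.33 over all listed genes, and the median change was 0.058 and 0.009. The split between higher and lower depends on the scaling. With each library scaled to an equal sum over the listed genes (total scaling), 35 members were called higher and 9 lower. Of all listed genes 35.2% were then called higher and 18.7% lower, and their median moved from 0.009 to 0.13.

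Each line was also compared with empty vector on its own. These comparisons share the 3 empty vector libraries, so they are not independent. In SAM1, 57 members were called, 35 higher and 22 lower, where 74.3% of all listed genes were called, 37.3% higher and 36.9% lower. With total scaling this split became 44 and 11, and with quantile normalization 44 and 17. In SAM2, 51 members were called, 25 higher and 26 lower, where 70.5% of all listed genes were called, 35.2% higher and 35.3% lower. With total scaling this split became 38 and 16. The shares of all listed genes called under these other scalings were not computed for either line alone. The median change of the members was 0.071 in SAM1 and -0.001 in SAM2.

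**Figure D2:**
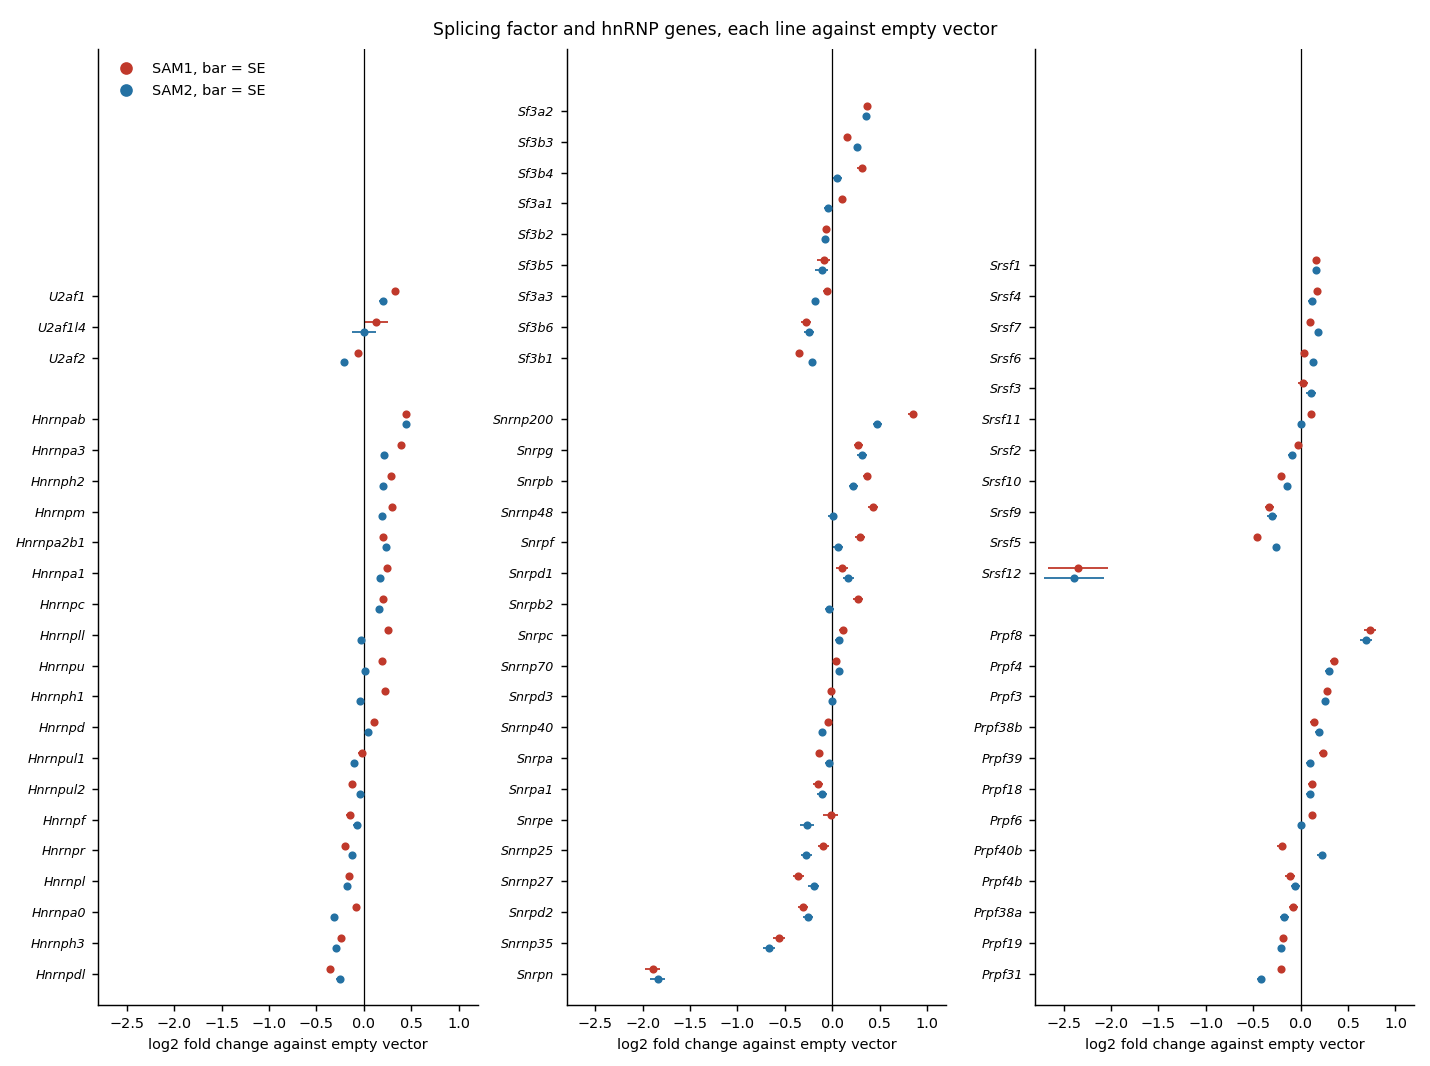
Log2 fold change against empty vector (horizontal axis) of 73 of the 74 members (rows, by family), in SAM1 (red) and SAM2 (blue), with standard errors. Most points lie between -0.5 and 0.5, and Srsf12, Snrpn, Snrnp35, Prpf8 and Snrnp200 stand outside the rest.

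The largest rises were in the pair of U5 proteins. Prpf8 (ENSMUSG00000020850.16, chr11:75377620-75400288, plus strand, GRCm39) encodes the protein that cradles the catalytic RNAs of the spliceosome. Its normalized counts were 12059, 9901 and 10791 in empty vector, 18993, 16592 and 18906 in SAM1, and 17593, 17207 and 17771 in SAM2. Every SAM library lay above every empty vector library, and the lines overlapped. The means were 10917 ± 1085, 18164 ± 1362 and 17524 ± 288 (SD, n = 3 each), and the pooled change was 0.71 (SE 0.067, adjusted p = 1.89e-05 from limma), or 1.64-fold. Snrnp200 (ENSMUSG00000003660.12, chr2:127050279-127086462, plus strand) encodes the helicase that unwinds U4 from U6. It stood at 10147, 8893 and 9182 in empty vector, at 17455, 15816 and 17523 in SAM1, and at 13230, 12778 and 13213 in SAM2. No groups overlapped, and SAM1 was the highest. The pooled change was 0.66 (SE 0.117, adjusted p = 0.00105 from limma), with 0.85 in SAM1 and 0.48 in SAM2. In both genes replicate 2 was the lowest library of each of the 3 groups. Of the 8 members of the U5 and tri-snRNP group (Prpf8, Snrnp200, Snrnp40, Snrnp27, Prpf6, Prpf3, Prpf4 and Prpf31), 4 rose and 2 fell. This was 75.0% called, against 53.9% of all listed genes. With total scaling 5 rose, where 35.2% of all listed genes did.

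Srsf12, a little-expressed SR protein gene on chr4:33208971-33234051, fell most. Its normalized counts were 52.2, 59.9 and 66.6 in empty vector, 10.4, 13.8 and 8.79 in SAM1, and 18.8, 6.49 and 9.28 in SAM2. All SAM libraries lay under the lowest empty vector library, at a level where single reads move the value. The pooled change was -2.37 (SE 0.296, adjusted p = 0.00012 from limma).

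Snrpn (ENSMUSG00000102252.7, chr7:59630427-59820763, minus strand) encodes SmN, a close relative of the ring protein SmB/B′ that is best known from neurons. It is expressed from the paternal allele only, within an imprinted domain. Its normalized counts were 497, 550 and 565 in empty vector, 135, 156 and 141 in SAM1, and 148, 147 and 152 in SAM2. The groups were well apart and the lines overlapped. The means were 538 ± 35.9, 144 ± 11 and 149 ± 2.51 (SD, n = 3 each), and the pooled change was -1.87 (SE 0.077, adjusted p = 1.2e-07 from limma). Snrpb, which encodes SmB/B′, went the other way, from 8616, 9870 and 9067 to 11692, 12492 and 11310 in SAM1 and 10567, 10713 and 10820 in SAM2. All 6 SAM libraries lay above empty vector, with a pooled change of 0.29 (SE 0.064, adjusted p = 0.00341 from limma). These genes are close paralogs, and up to 20 alignments were allowed for a read, so the counting of reads that fit both is uncertain. Snrpn counts were small beside those of Snrpb in every library.

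The other listed genes of the imprinted domain around Snrpn were looked at after its value was seen. Ndn, which encodes necdin, had mean normalized counts of 1930 ± 133 in empty vector, 592 ± 15.1 in SAM1 and 149 ± 6.04 in SAM2 (SD, n = 3 each), with a pooled change of -2.69 (adjusted p = 0.0029 from limma). Snhg14, the long noncoding transcript that runs on from Snrpn, fell by 1.28 (adjusted p = 0.000202 from limma), and Peg12 fell by 0.89 (adjusted p = 0.000187 from limma). Mkrn3 was at 36.7 ± 9.53, 49.5 ± 1.94 and 41.0 ± 9.09, with a change of 0.31 (adjusted p = 0.236 from limma). Ube3a, which in most tissues is expressed from both alleles, had a pooled change of -0.34 (adjusted p = 0.0504 from limma), and was called lower in each line, at -0.55 in SAM1 (adjusted p = 1.87e-08 from limma) and -0.12 in SAM2 (adjusted p = 0.0125 from limma). Snurf and Magel2 of the same domain were not listed.

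Snrnp35, a protein of the U11/U12 particle of the minor spliceosome on chr5:124620545-124631646, also fell. Its normalized counts were 629, 630 and 655 in empty vector, 434, 426 and 436 in SAM1, and 376, 439 and 391 in SAM2. The groups did not overlap with empty vector, and the pooled change was -0.62 (SE 0.067, adjusted p = 4.92e-05 from limma). Snrnp25 and Snrnp48, the other members from that particle, had pooled changes of -0.19 (adjusted p = 0.0682 from limma) and 0.22 (adjusted p = 0.191 from limma).

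**Figure D3:**
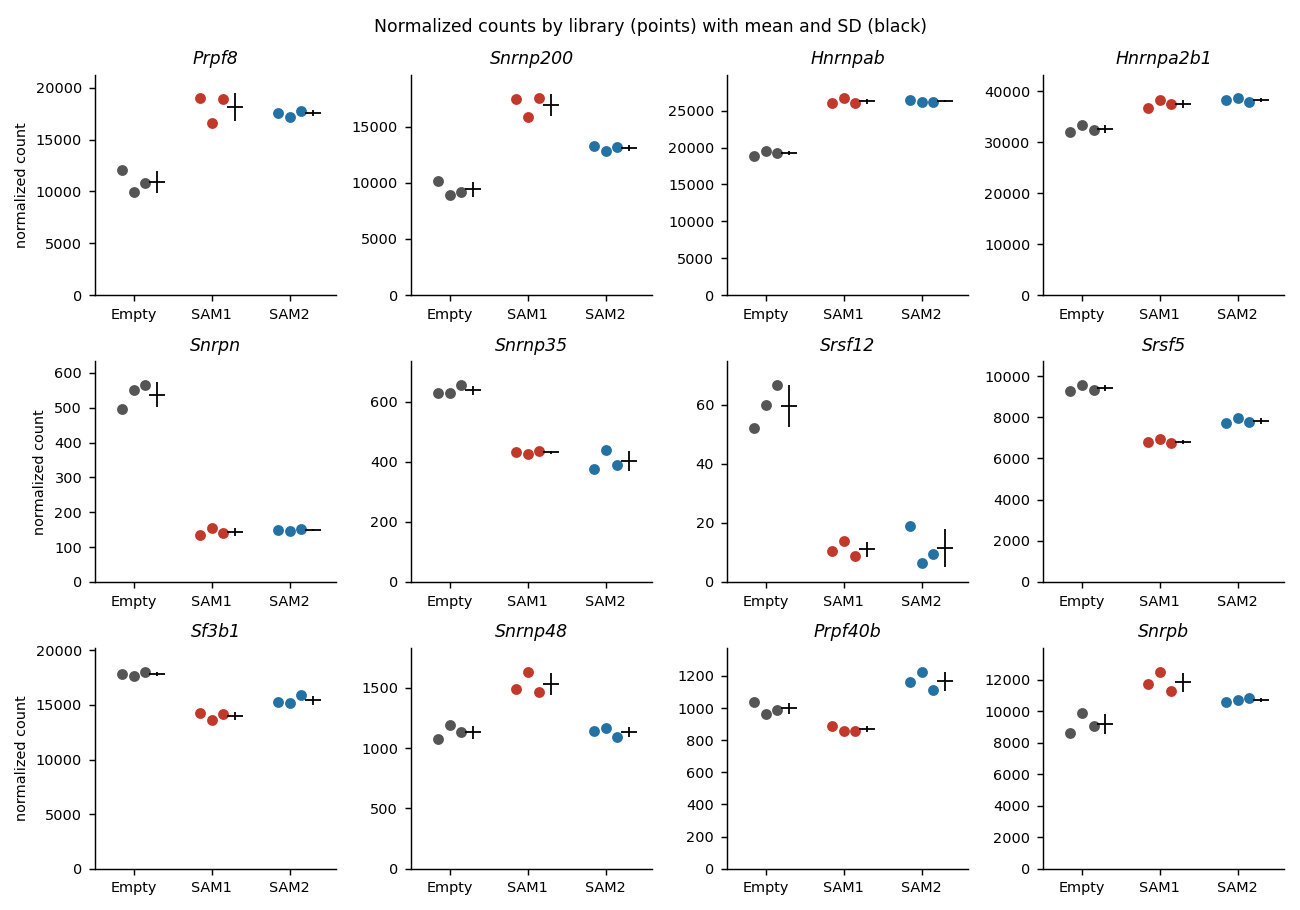
Normalized counts (vertical axes, from 0) of 12 members in the 3 groups. Points are libraries, and the black marks are means with SD. Prpf8, Snrnp200, Hnrnpab, Hnrnpa2b1 and Snrpb are higher in both SAM lines, Snrpn, Snrnp35, Srsf12, Srsf5 and Sf3b1 are lower, and Snrnp48 and Prpf40b separate the lines from each other.

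Of the 19 other hnRNP genes, 7 rose and 5 fell over both SAM lines, and 7 did not pass the test. This was 63.2% called, against 53.9% of all listed genes. With total scaling, 9 rose and 2 fell, where 35.2% and 18.7% of all listed genes did. Hnrnpab, which encodes an RNA- and DNA-binding protein with several isoforms, rose most. Its normalized counts were 18926, 19545 and 19284 in empty vector, 26030, 26710 and 26056 in SAM1, and 26419, 26205 and 26203 in SAM2. The SAM lines lay together, above empty vector, at a pooled change of 0.45 (SE 0.031, adjusted p = 2.8e-06 from limma). Hnrnpa3, an hnRNP of the A/B type, rose by 0.30 (adjusted p = 0.00242 from limma).

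The core A/B and C proteins changed less. Hnrnpa2b1, the most abundant member per kilobase, was at 31989, 33388 and 32477 in empty vector, 36644, 38224 and 37555 in SAM1, and 38294, 38669 and 37983 in SAM2. All SAM libraries lay above, and the pooled change was 0.22 (SE 0.036, adjusted p = 0.000707 from limma). Hnrnpa1 was at 11534, 12065 and 11618 in empty vector, 13656, 14341 and 13832 in SAM1, and 13225, 13475 and 13057 in SAM2, with a pooled change of 0.21 (adjusted p = 0.00134 from limma). Hnrnpc, which binds uridine tracts of nascent RNA, had a pooled change of 0.18 (adjusted p = 0.0034 from limma). Quantile normalization moved these values to 0.41, 0.34 and 0.27.

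Hnrnpdl fell most in this family, from 7403, 7873 and 7554 in empty vector to 6076, 5966 and 5724 in SAM1 and 6365, 6339 and 6388 in SAM2. The groups did not overlap, and the pooled change was -0.31 (SE 0.045, adjusted p = 0.000315 from limma). Its mRNA is a known target of its own splicing control. Hnrnph3, of the guanine-binding H/F type, followed at -0.26 (adjusted p = 0.000347 from limma). Hnrnpl, which binds CA repeats, was called lower at -0.17 (adjusted p = 0.00218 from limma), but quantile normalization moved this to -0.028 and total scaling to -0.044, where it was not called. Hnrnpu, a scaffold-associated protein, had a pooled change of 0.10 (adjusted p = 0.194 from limma), which quantile normalization moved to 0.27 and total scaling to 0.22, where it was called.

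In the Srsf family 3 genes rose, 4 fell and 4 did not pass the test (63.6% called, against 53.9% of all listed genes). With total scaling, 6 rose and 3 fell, where 35.2% and 18.7% of all listed genes did. Srsf1, the classical SR protein SF2/ASF, was at 14490, 15184 and 14888 in empty vector, 16791, 16435 and 16685 in SAM1, and 16615, 16569 and 16802 in SAM2. All SAM libraries lay above empty vector, and the change was 0.17 (SE 0.031, adjusted p = 0.00147 from limma), with 0.29 under either other scaling. Srsf4 rose by 0.15 (adjusted p = 0.0133 from limma), and without replicate 3 of empty vector this was 0.13 and not called. Srsf7 was the third gene to rise (0.14, adjusted p = 0.0163 from limma).

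Srsf5 fell furthest among the well-expressed SR genes. Its normalized counts were 9293, 9563 and 9334 in empty vector, 6779, 6923 and 6741 in SAM1, and 7715, 7983 and 7775 in SAM2. No groups overlapped, SAM1 was the lowest, and the pooled change was -0.36 (SE 0.064, adjusted p = 0.00101 from limma), or -0.24 with total scaling. Srsf9 and Srsf10 were the remaining genes that fell, by 0.32 and 0.18. Srsf2, at 12506, 13781 and 13144 in empty vector, 12680, 13425 and 12600 in SAM1, and 12280, 12193 and 12400 in SAM2, had a pooled change of -0.061 (adjusted p = 0.271 from limma). Srsf3, a short SR protein, had one of 0.066 (adjusted p = 0.367 from limma), which total scaling moved to 0.19, where it was called. In both genes the libraries of empty vector spanned those of SAM1.

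In the Snrp and Snrnp genes 3 rose (Snrnp200, Snrpg and Snrpb), 4 fell (Snrpn, Snrnp35, Snrpd2 and Snrnp27) and 12 did not pass the test. This was 36.8% called, below the 53.9% of all listed genes. With total scaling, 8 rose and 3 fell, where 35.2% and 18.7% of all listed genes did. Snrpg, a protein of the Sm ring, rose by 0.30 (adjusted p = 0.00106 from limma). Of the 8 Sm ring genes 2 rose and 2 fell, a share near the 53.9% called of all listed genes, and with total scaling 5 rose and 2 fell. The U1 genes Snrnp70, Snrpa and Snrpc had pooled changes of 0.055, -0.084 and 0.091, with adjusted p of 0.21, 0.179 and 0.131 from limma. Snrnp70, which binds the U1 snRNA and marks the start of the intron, stood at 9797, 9873 and 9557 in empty vector, 9674, 10423 and 9987 in SAM1, and 10125, 10416 and 10135 in SAM2. SAM2 lay above empty vector and SAM1 overlapped with it. Its change was 0.16 with quantile normalization and 0.18 with total scaling, and was called under both.

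In the Prpf family 7 genes rose, 2 fell and 4 did not pass the test (69.2% called, against 53.9% of all listed genes). With total scaling 8 rose, where 35.2% of all listed genes did. After Prpf8 the largest rise was in Prpf4, of the U4/U6 particle, at 1529, 1509 and 1439 in empty vector, 2007, 1803 and 1910 in SAM1, and 1854, 1808 and 1833 in SAM2. The SAM libraries all lay higher, by 0.32 (SE 0.046, adjusted p = 0.000271 from limma). Prpf31, which joins U4/U6 to U5, fell by 0.31 (adjusted p = 0.00423 from limma), from 3380, 3589 and 3485 in empty vector to 2959, 3082 and 3027 in SAM1 and 2547, 2619 and 2634 in SAM2. Prpf19, the ubiquitin ligase of the complex that carries its name, fell by 0.20 (adjusted p = 0.000613 from limma). With total scaling these changes were -0.19 and -0.076, and neither was called.

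Of the 9 Sf3 genes 2 rose, 2 fell and 5 did not pass the test (44.4% called, below the 53.9% of all listed genes). Sf3b1, the subunit that clasps the branch point helix and is often mutated in myeloid disease, was at 17820, 17631 and 18029 in empty vector, 14303, 13610 and 14147 in SAM1, and 15250, 15160 and 15873 in SAM2. No groups overlapped, and the pooled change was -0.28 (SE 0.051, adjusted p = 0.00137 from limma), with -0.14 under quantile normalization and -0.16 with total scaling, called in both. Sf3b6, whose product contacts the branch point, fell by 0.26 (adjusted p = 0.00241 from limma), and by 0.14 with total scaling, where it was not called. Sf3a2, a bridge between U2 and the pre-mRNA, rose by 0.36 (adjusted p = 1.54e-05 from limma), from 2654, 2660 and 2521 in empty vector to 3377, 3288 and 3419 in SAM1 and 3365, 3339 and 3347 in SAM2. Sf3b3 rose by 0.21 (adjusted p = 0.00334 from limma). Subunits of the same complex thus moved in opposite directions.

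The subunits of the U2AF heterodimer were tested singly. U2af1, the small subunit that reads the AG at the intron end, was at 2036, 2113 and 2088 in empty vector, 2554, 2719 and 2585 in SAM1, and 2355, 2433 and 2369 in SAM2, and rose by 0.27 (SE 0.052, adjusted p = 0.00193 from limma). U2af2, the large subunit that binds the polypyrimidine tract, had a pooled change of -0.14 (adjusted p = 0.0586 from limma), and without replicate 2 of SAM1 it was called at -0.16. In SAM2 it fell by 0.21 (adjusted p = 2.69e-05 from limma). U2af1l4, a small relative of U2af1, was near 70 in every library and was not called.

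Whether the lines differed was tested in the same 3-group fit. Between SAM2 and SAM1, 33 members were called, 10 higher in SAM2 and 23 lower, where 60.3% of all listed genes were called, 31.1% higher and 29.2% lower. With total scaling, 4 were called higher and 31 lower, and with quantile normalization 4 and 32. The shares of all listed genes called under these scalings were not computed for this comparison. The number called higher rested on few libraries, since it was 6, 5, 5 and 6 without SAM1 replicate 1, SAM1 replicate 3, SAM2 replicate 1 and SAM2 replicate 3. No member differed by more than 0.5 on the log2 scale, and 63 of 74 differed by less than 0.2.

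Snrnp48, a minor spliceosome protein, differed most in the downward direction. It was at 1080, 1189 and 1132 in empty vector, 1492, 1633 and 1469 in SAM1, and 1144, 1170 and 1093 in SAM2. SAM1 alone was high, with a difference of -0.43 between SAM2 and SAM1 (SE 0.051, adjusted p = 1.02e-05 from limma). Prpf40b, a factor that bridges the intron ends, differed most upward, at 1037, 964 and 991 in empty vector, 890, 854 and 859 in SAM1, and 1160, 1225 and 1111 in SAM2. SAM1 lay below empty vector and SAM2 above it, with changes of -0.20 and 0.22 and a difference of 0.42 (SE 0.047, adjusted p = 5.55e-06 from limma). The value in SAM1 was -0.058 with total scaling and was then not called. Snrnp200 differed by -0.37 (adjusted p = 2.51e-05 from limma), although both lines lay above empty vector.

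The other 3 members with the largest differences moved in SAM1. Snrpb2, a U2 snRNP protein, stood at 2641, 3050 and 2985 in empty vector, 3432, 3677 and 3325 in SAM1, and 2809, 2823 and 2849 in SAM2, with a difference of -0.30 (adjusted p = 0.000255 from limma). Hnrnpll, a relative of Hnrnpl known from T cell splicing, was at 6219, 6333 and 6266, at 7474, 7605 and 7412, and at 6305, 6086 and 6004, with one of -0.29 (adjusted p = 1.43e-06 from limma). Hnrnph1 was at 10236, 10403 and 10289, at 12107, 11944 and 12069, and at 10108, 9936 and 10073, with one of -0.26 (adjusted p = 9.36e-07 from limma). In all 3 genes SAM1 lay above the other groups. SAM2 lay within or below the range of empty vector.

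**Figure D4:**
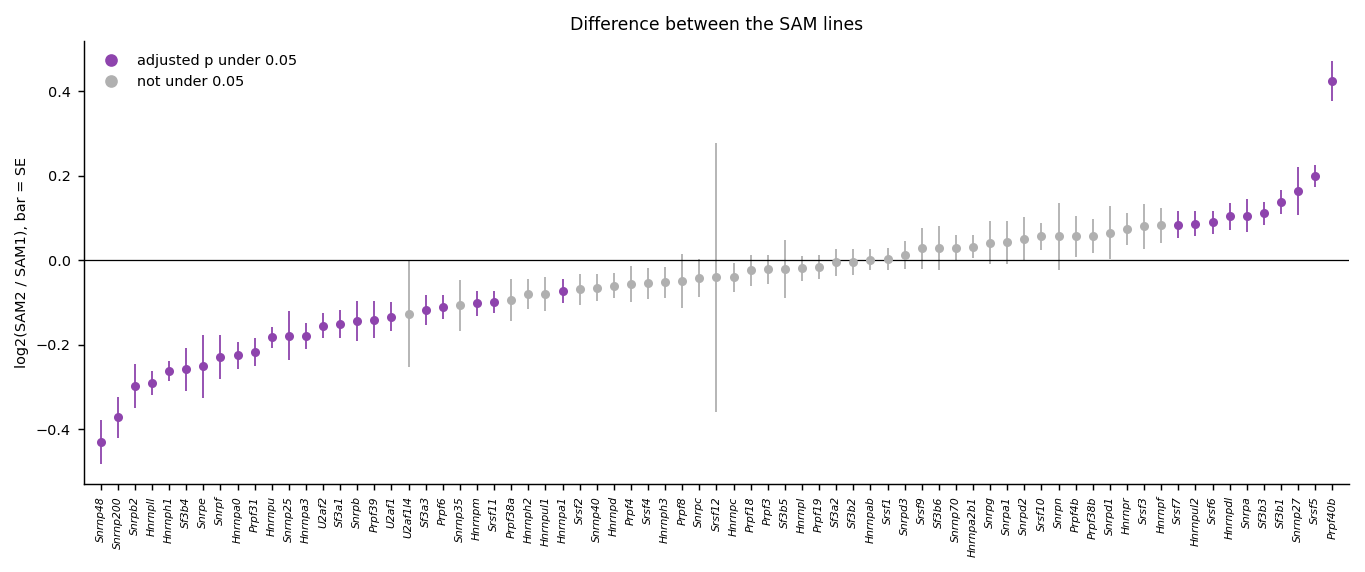
Difference between SAM2 and SAM1 (vertical axis, log2, with standard errors) for 73 of the 74 members in order of size (horizontal axis), with members called at an adjusted p under 0.05 in purple. Snrnp48 stands at the low end (-0.43) and Prpf40b at the high end (0.42).

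Changes of the members were set beside those of the genes around them. The median change of all listed genes differed by chromosome, from -0.24 on chromosome 7 to 0.55 on chromosome 14. Of the 10 members on chromosome 7, 4 fell and 6 did not pass the test. Of the 8 on chromosome 2 (median 0.21), 5 rose and 3 did not pass. Over all chromosomes 26.8% of listed genes were called higher and 27.0% lower. Elsewhere members moved both ways, with 2 higher and 3 lower on chromosome 4 (median -0.15). On chromosome 6 (median 0.18) 2 were higher and 1 lower. With the median of its chromosome subtracted, 34 of the 40 called members kept their sign. The sign turned in 6 members, among them Hnrnpa1, Hnrnpl and Hnrnpc. Others shrank by more than 1.5 times, such as Sf3b1 (from -0.28 to -0.092), Srsf5 (from -0.36 to -0.22), Prpf31 (from -0.31 to -0.071), Snrpb (from 0.29 to 0.080), U2af1 (from 0.27 to 0.12) and Hnrnpa2b1 (from 0.22 to 0.039). The clearest case of a turned sign was Hnrnpc on chromosome 14, whose 0.18 became -0.37, since the median of its chromosome was larger than the change of the gene.

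Listed genes within 1 Mb gave a closer background. The 16 around Hnrnpc all had higher values in the SAM libraries, with a median of 0.65. Those around Sf3b1 (15 genes) and Srsf5 (21 genes) had medians of -0.30 and -0.36, close to the changes of Sf3b1 (-0.28) and Srsf5 (-0.36) themselves. The median around Prpf8 was 0.27 over 37 genes and around Snrnp200 0.18 over 22 genes, below their own 0.71 and 0.66. Around Srsf12 and Snrnp35 it was -0.33 over 12 genes and -0.15 over 43 genes, against -2.37 and -0.62. Of the 40 called members, 34 had the sign of their neighbours, as did 71.0% of all called genes with at least 4 neighbours. Genes on 1 chromosome are not independent, and these counts do not measure the copy number of chromosomes. The study examined karyotypes by other means, which were not analysed here.

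**Figure D5:**
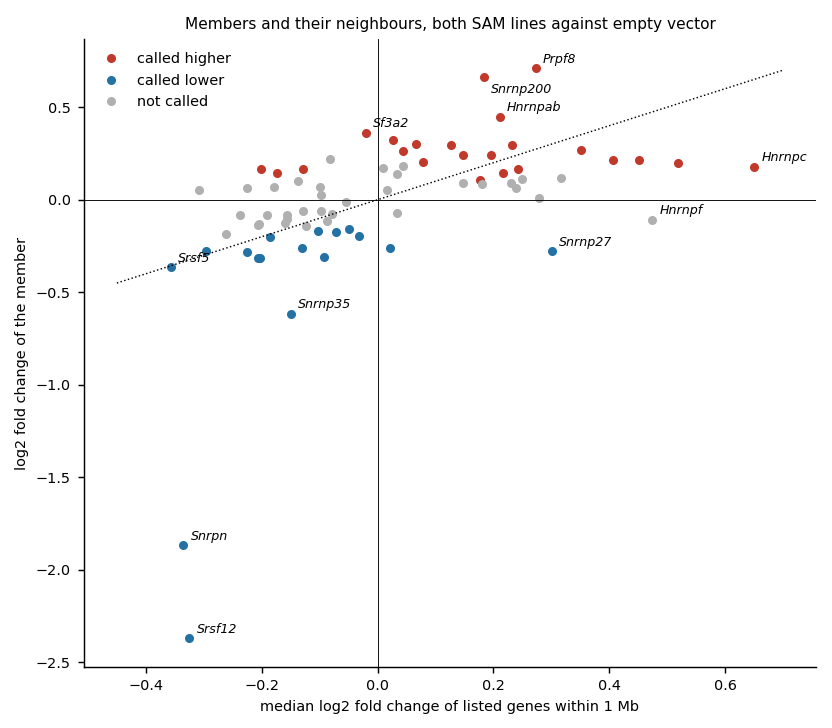
Pooled log2 fold change of each member (vertical axis) against the median of the listed genes within 1 Mb of it (horizontal axis), with members called higher in red, lower in blue and the rest in grey. The dotted line marks equal values, Snrpn and Srsf12 lie far below it, and Prpf8 and Snrnp200 above it.

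Of 157 further splicing genes outside these name families, chosen by role, 153 were listed. Over both SAM lines 63 rose and 33 fell, with a median change of 0.097, or 41.2% higher and 21.6% lower where 26.8% and 27.0% of all listed genes were. With total scaling 80 rose and 15 fell, or 52.3% and 9.8% against 35.2% and 18.7% of all listed genes. Among 60 other core spliceosome subunits and helicases 32 rose and 10 fell (70.0% called), and 40 and 3 with total scaling. Among 17 snRNP assembly genes 6 rose and 3 fell (52.9% called, near the 53.9% of all listed genes). Of 8 listed SR protein kinase and phosphatase genes 1 rose and 4 fell (62.5% called), but none of the falls was called with total scaling. Of 53 listed splicing regulators 20 rose and 13 fell (62.3% called), and 25 and 8 with total scaling. Of 9 exon junction genes 2 rose and 1 fell (33.3% called, below the 53.9% of all listed genes). Of 6 other minor spliceosome genes 2 rose and 2 fell (66.7% called).

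These genes included single larger changes. Mbnl1, which encodes muscleblind, a regulator of developmental splicing, had normalized counts of 70494, 65825 and 70314 in empty vector, 10672, 9912 and 10485 in SAM1, and 7151, 7341 and 7319 in SAM2. The groups were far apart, with a pooled change of -2.99 (SE 0.149, adjusted p = 3.51e-07 from limma). Its paralogs Mbnl2 and Mbnl3 rose, by 0.96 (adjusted p = 1.16e-06 from limma) and 1.69 (adjusted p = 0.00223 from limma). Less the median of its chromosome (0.55 on chromosome 14), the change of Mbnl2 was 0.42. Mbnl2 went from 7996, 7142 and 7613 to 14478, 13245 and 15048 in SAM1 and 15617, 15093 and 15252 in SAM2. Mbnl3 stood at 169 on average in empty vector, 826 in SAM1 and 365 in SAM2. Nova1 and Celf2, regulators best known from brain and muscle, fell by 1.75 and 0.62, and Ptbp3 fell by 0.65. Rbmx, an X-linked hnRNP (hnRNP G) outside the name families, rose by 0.97, with 1.43 in SAM1 and 0.50 in SAM2, and Rbm47 rose by 0.95.

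Listed genes overlapped 36 members on the opposite strand and 5 on the same strand in the annotation. The library kit keeps strand, but the sources used here do not give the strand setting of the counting, so reads of such pairs may not be told apart. Such pairs include Hnrnpa2b1 (with Cbx3 and Nfe2l3), Hnrnpdl (with Enoph1), Hnrnpab (with Phykpl), Hnrnpa1 (with Cbx5), Snrnp200 (with Ciao1), Snrnp35 (with Rilpl1) and Sf3a2 (with Plekhj1). Counts per gene do not show which isoform of a member was made.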

How the data were processed

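PolyA+ RNA was measured by RNA-Seq with a strand-directional kit with paired reads of 43 bases (NextSeq 500). Conditions and replicate numbers came from the labels. Before deposit the authors checked reads with FastQC (0.11.0), aligned them to GRCm39 with TopHat2, allowing 3 mismatches and 20 multihits, counted them on GENCODE vM29 with HTSeq, and normalized the counts with the size factors of DESeq2. What they deposited is thus a signal, in normalized counts, for genes that exceeded 10 in 30% of samples or more.

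The members, lists and tests were chosen with earlier results of these data known. log2(value + 1) was fitted with limma (3.58.1, empirical Bayes with a trend, R 4.3.3), two-sided, with Benjamini-Hochberg adjustment over 15184 genes at 0.05. The design had named edgeR for raw counts. The pooled fit set the 6 SAM libraries against the 3 of empty vector as in the study, and a 3-group fit gave each line and their difference. Gene positions came from GENCODE vM39, where all 74 members and 14791 listed names were found once. Named were 15 members chosen by role, in each family the largest called rises and falls (at most 2 each) without overlap of the groups, the 6 largest called differences between the lines, and the 4 largest rises and falls among the other splicing genes. Genes named outside this rule are so marked or belong to counts of 5 or fewer.

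Reads were recovered as whole multiples (tolerance 0.1 reads) in 8 libraries. Those of SAM2 replicate 1 could not be, so edgeR (4.0.16) and DESeq2 (1.42.0) were run without it, as alternatives. The other alternatives were a pseudocount of 10, a filter, quantile and total scaling, a replicate block, the mean of the lines, subtraction of chromosome medians, and each library left out in turn. The tests of both SAM lines against empty vector were checked on simulated counts in which few genes changed, alike in both lines. The tests of single lines and of their difference were not checked in this way. Depth gives counting error only. The values of 1 member are not reported here singly. Figures were drawn with matplotlib 3.10.9.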

Additional observations from a re-analysis of the deposited data

Results flagged for a closer look

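Differences between the lines were looked at again for 17 named members, each called between SAM2 and SAM1 in the 3-group fit. Higher in SAM2 were Prpf40b (0.42), Srsf5 (0.20), Sf3b1 (0.14), Sf3b3 (0.11) and Hnrnpdl (0.10). Lower in SAM2 were Snrnp48 (-0.43), Snrnp200 (-0.37), Snrpb2 (-0.30), Hnrnpll (-0.29), Hnrnph1 (-0.26), Prpf31 (-0.22), Hnrnpu (-0.18), Hnrnpa3 (-0.18), U2af2 (-0.16), Snrpb (-0.14), U2af1 (-0.13) and Hnrnpa1 (-0.073). For Hnrnpa1 the call was lost without Empty replicate 3 (-0.073), SAM1 replicate 2 (-0.053) or 3 (-0.079), or any of SAM2 replicates 1, 2 and 3 (-0.072, -0.085 and -0.062). For Snrpb it was lost without SAM1 replicate 2 (-0.10) or SAM2 replicate 1 (-0.14), and for Hnrnpdl without SAM1 replicate 3 (0.080). Quantile normalization ended the calls of Hnrnpdl (0.053) and Sf3b3 (0.049), and total scaling that of Hnrnpdl (0.066). In no named member did 1 of the 6 SAM libraries stand apart from the others by Dixon's 95% criterion. The criterion took both lines together, so where the lines differ it could miss a library that stands apart within its own line.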

How the results depend on the processing

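The total counts of called members moved by less than 1.5 times under every alternative run except 1, but the counts in 1 direction moved further with scaling. With total scaling the members called higher over both lines went from 23 to 35 and those called lower from 17 to 9. Those called lower in SAM1 went from 22 to 11, and those called higher in SAM2 than in SAM1 from 10 to 4. Of all listed genes, the share called higher over both lines went from 26.8% to 35.2% and that called lower from 27.0% to 18.7%. With the mean of the lines against empty vector in the 3-group fit, 63 members were called in place of 40, where the spread within lines replaces the spread over both lines. With each library left out in turn, the count ranged from 35 to 44 for both SAM lines against empty vector, from 54 to 59 for SAM1, from 46 to 54 for SAM2 and from 26 to 37 between the lines. edgeR on the recovered reads called 38, 56, 46 and 26 members, and DESeq2 39, 55, 45 and 24. Less the median of their chromosome, these called values turned direction. Over both lines they were Hnrnpa1 (-0.044), Hnrnpc (-0.37) and Hnrnpl (0.075). In SAM1 they were Hnrnpc (-0.33), Hnrnpl (0.11), Prpf31 (0.065) and Snrpb2 (-0.006). In SAM2 they were Hnrnpa1 (-0.14), Hnrnpa2b1 (-0.009), Hnrnpc (-0.41), Hnrnpl (0.066), U2af2 (0.030) and Prpf40b (-0.092). Quantile normalization turned Hnrnpl in SAM1 (0.009) and Srsf2 in SAM2 (0.018), and total scaling turned Srsf2 in SAM2 (0.008). Its call in SAM2 (-0.096) was also lost without Empty replicate 2 (-0.061) or 3 (-0.095) and without SAM2 replicate 1, 2 or 3 (-0.095, -0.090 and -0.10). The call of Srsf4 in SAM2 was lost without Empty replicate 3 (0.10) or SAM2 replicate 1 (0.089). The cause of these losses was not tested.

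The replicate numbers are shared by the groups. Deviations of same-numbered libraries from their group means correlated with r between 0.00237 and 0.117, and those of differently numbered libraries between -0.122 and 0.046. The numbers were not taken as pairs in the main fit. Whether same-numbered libraries were handled together was not tested. Every library correlated best with one of its own number except SAM2 replicate 2, which did so with SAM1 replicate 1 (r = 0.046). With the replicate block 38 members were called over both lines, 61 in SAM1, 56 in SAM2 and 38 between the lines. Depth limits Srsf12 most, whose SAM libraries held few reads.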
